A study of Mus musculus and Homo sapiens with 9 samples.

Results

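The genes of the respiratory chain and the ATP synthase were followed across loss of IRF2BP2, a transcriptional cofactor, in a human leukaemia line and in mouse T cells. Protein-coding genes were taken by name alone: the NDUFA, NDUFB, NDUFC, NDUFS and NDUFV genes of complex I, SDHA to SDHD, the UQCR genes with CYC1, CYCS, the COX4 to COX8 genes, the ATP5F, ATP5M and ATP5P genes, and the protein genes of the mitochondrial genome. The rule gave 112 genes in the human table, 99 nuclear and 13 mitochondrial, of 64252 rows, and 108 in the mouse table, 95 nuclear and 13 mitochondrial, of 43432 rows. After the filter on low counts, 103 human members (90 nuclear, 13 mitochondrial) and 101 mouse members (88 nuclear, 13 mitochondrial) were tested. The rule itself uses names and no measured values.

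RNA-seq counts were available for 4 libraries of J.gamma1, a T-ALL (T cell acute lymphoblastic leukaemia) line derived from Jurkat that is deficient in PLCG1 protein, of which 2 carried the control hairpin shNC and 2 the hairpin shIRF2BP2. Both hairpins were delivered in the lentiviral vector pLKO.1 and the cells selected in puromycin, so the controls had this treatment too. The mouse set held magnetically sorted CD3+ T cells of the spleen, 3 libraries labelled Wild type control and 2 labelled Irf2bp2 KO. By the study's methods both carry the floxed allele Irf2bp2fl/fl, and the controls are Vav-iCre-/- and the knockouts Vav-iCre+/-, so that the deletion covers the hematopoietic lineage and not T cells alone; the mice of this line were phenotyped at 6 weeks of age. The labels do not say that the libraries of a group came from separate cultures or animals, and the p-values then measure only the spread between these libraries.

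The respiratory chain moves electrons from NADH and succinate to oxygen and pumps protons across the inner mitochondrial membrane, and the ATP synthase makes ATP from the gradient. Its subunits come from both genomes: complex II and cytochrome c are wholly nuclear, whereas complexes I, III and IV and the ATP synthase combine nuclear subunits with core subunits made inside the mitochondrion. Mitochondrial genes are transcribed as long polycistronic RNAs from mitochondrial DNA by their own polymerase, while each nuclear subunit gene has its own promoter, many of them with sites for NRF1, ETS factors and YY1.

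Libraries held 26648204 to 31120236 counts in J.gamma1 and 16668577 to 37177523 in mouse, with Wild type control replicate 3 the smallest. IRF2BP2 stood at 204 and 199 CPM (counts scaled to library size with edgeR's TMM factors) in the shNC libraries and at 78.9 and 93.8 in the shIRF2BP2 libraries, a log2 fold change of -1.22 ± 0.131 (SE; edgeR adjusted p = 0.00229). Mouse Irf2bp2 had 4145, 4594 and 1915 counts in the controls and 0 in both knockouts. The PLCG1 transcript was read in all 4 J.gamma1 libraries, at 265 and 256 CPM in shNC and 315 and 346 in shIRF2BP2. The summed CPM of 13 T cell markers, PLCG1 among them, was 2091 to 2301 in shNC and 2122 to 2273 in shIRF2BP2. Single markers moved within this sum. At the thresholds given below, LAT (log2 fold change 0.79), CD28 (0.81) and TRAC (0.51) were called higher and CD3D (-0.79) lower. In mouse, 12 T cell markers summed to 4814 to 5943 CPM in the controls and 3813 to 4082 in the knockouts. The sums of 11 erythroid markers were 673 to 2329 against 4757 to 6603. For 7 proliferation genes they were 328 to 494 against 1078 to 1232. Sums of 6 plasma cell markers (411 to 1150 against 1134 to 1496) and 9 myeloid markers (45.3 to 411 against 97.2 to 153) overlapped. So did those of 7 B cell markers (34.5 to 255 against 37.8 to 124). The same held for 4 NK cell markers (74.5 to 96.5 against 71.6 to 109). Sums of 4 platelet markers overlapped too (6.94 to 14.8 against 9.40 to 12.9). In these bulk samples fewer cells of a type and less RNA per cell cannot be told apart.

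In J.gamma1, most nuclear respiratory chain genes stood slightly lower after the knockdown, and 4 of them passed the test. The median log2 fold change (shIRF2BP2 against shNC) was -0.22 over the 90 nuclear members tested, beside 0.01 over all 15819 genes, and 75 of the 90 were negative. Calls required both an edgeR quasi-likelihood adjusted p below 0.05 and a change of 0.5 or more on the log2 scale. SDHC, ATP5MK, NDUFA4 and UQCRQ were called lower, 4 of 103 members, where 5.01% of all genes were, so this share was near the background. None was called higher, against 5.46% of all genes. On the adjusted p alone 5 members passed as lower (5.32% of all genes) and none as higher (5.83% of all genes). Among members 29 had an unadjusted p under 0.05 and were lower, and 1 was higher, MT-ND5. DESeq2 gave 11 lower members and 1 higher at its adjusted p under 0.05. The shares of all genes under these last rules were not computed, so these counts have no background beside them.

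The share of members whose libraries were apart differed more from the background than the share called. Both shIRF2BP2 libraries lay below both shNC libraries for 65 of the 90 nuclear members, 72.2% of them, where 28.7% of all genes did so. The opposite order was seen for 4 nuclear and 3 mitochondrial members, where 29.6% of all genes had it. Much of the group is made of short genes, and short genes stood lower in general. Among all genes with a coding transcript of up to 1000 bases the median was -0.20 and 49.8% were apart and lower, and the 59 nuclear members of that length had a median of -0.23 with 76.3% apart and lower. Over 1000 bases the 11674 genes had a median of 0.02 with 28.9% apart and lower, and the 31 nuclear members had -0.19 with 64.5%. Length moved with the result, and its part in the result was not tested. The nuclear members were also more highly expressed, with a median log2 CPM of 6.19 beside 4.44 for all genes tested. Shares apart among genes of like level were not computed, and the part of level was not tested. Without shNC replicate 2 the nuclear median was -0.16.

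**Figure D1:**
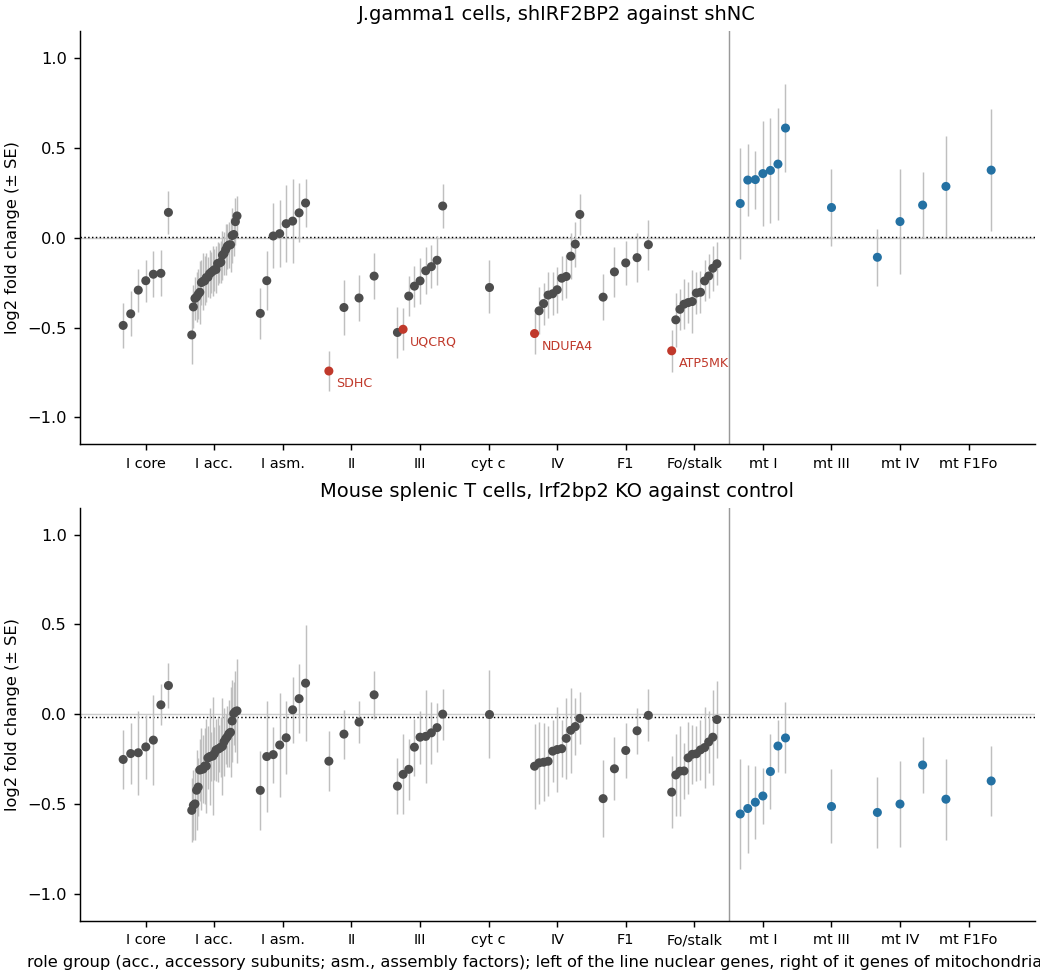
Log2 fold change (± SE from the edgeR fit) of each tested member, grouped by complex and role, in J.gamma1 (shIRF2BP2 against shNC) and mouse T cells (Irf2bp2 KO against Wild type control); red marks the members called lower, blue the mitochondrially encoded members, and the dotted line the median of all genes tested. NDUFA3 of J.gamma1, UQCRHL, COX7A2L and the tissue isoforms are not drawn. The nuclear groups of J.gamma1 lie mostly below the dotted line and its mitochondrial genes above, while in mouse both lie below.

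The promoters of the 4 called genes are shown because each nuclear subunit gene is transcribed from a promoter of its own. Each line gives 250 bases before and 30 after the annotated start, 5' to 3' on the gene's strand, from the hg38 reference (SDHC chr1:161314131-161314410 plus, UQCRQ chr5:132866392-132866671 plus, ATP5MK chr10:103396446-103396725 minus, NDUFA4 chr7:10940124-10940403 minus). Capitals mark matches, on either strand, to CCGGAAGT (ETS family), GCATGCGC (NRF1) or AAGATGGC (YY1).
SDHC: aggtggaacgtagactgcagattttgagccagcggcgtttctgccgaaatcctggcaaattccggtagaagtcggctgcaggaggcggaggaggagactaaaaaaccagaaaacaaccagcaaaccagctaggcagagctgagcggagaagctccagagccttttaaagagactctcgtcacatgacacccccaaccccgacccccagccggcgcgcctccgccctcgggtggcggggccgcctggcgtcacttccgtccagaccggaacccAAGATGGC
UQCRQ: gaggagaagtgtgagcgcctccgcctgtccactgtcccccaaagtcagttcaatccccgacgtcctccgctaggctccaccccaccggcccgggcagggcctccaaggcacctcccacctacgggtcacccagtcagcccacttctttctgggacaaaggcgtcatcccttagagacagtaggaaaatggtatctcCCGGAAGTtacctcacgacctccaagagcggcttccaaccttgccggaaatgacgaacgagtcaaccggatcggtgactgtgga
ATP5MK: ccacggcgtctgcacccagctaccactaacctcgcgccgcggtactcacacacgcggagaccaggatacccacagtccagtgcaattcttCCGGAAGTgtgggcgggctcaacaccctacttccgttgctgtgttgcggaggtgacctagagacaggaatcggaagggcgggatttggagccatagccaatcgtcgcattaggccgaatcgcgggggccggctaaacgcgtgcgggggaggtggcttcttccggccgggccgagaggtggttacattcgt
NDUFA4: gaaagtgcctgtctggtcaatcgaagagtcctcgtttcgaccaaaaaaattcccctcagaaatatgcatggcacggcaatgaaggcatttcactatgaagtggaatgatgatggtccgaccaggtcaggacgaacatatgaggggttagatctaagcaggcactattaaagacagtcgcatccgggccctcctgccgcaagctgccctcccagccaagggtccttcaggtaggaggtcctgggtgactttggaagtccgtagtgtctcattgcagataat
SDHC held the YY1 word at position 23 after the start, UQCRQ the ETS word at -54 and ATP5MK the ETS word at -160, and NDUFA4 held none of the 3.

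Over the windows from 250 bases before to 50 after the start, the YY1 word was present in 17.2% of the 99 human nuclear members and 4.04% of 20033 genes, the NRF1 word in 16.2% and 4.27%, and the ETS word in 13.1% and 6.14%. At least 1 of the 3 was held by 39.4% of members and 13.3% of all genes. The 39 tested members with any of them had a median log2 fold change of -0.23 and the 51 without had -0.20. By word, the medians with and without it were -0.30 and -0.21 for YY1 (17 and 73 members), -0.24 and -0.21 for ETS (13 and 77), and -0.22 and -0.22 for NRF1 (16 and 74). In mouse, where 76 of 95 nuclear members matched a RefSeq promoter of GRCm38.p6, 36.8% of members and 9.91% of 27025 genes held any of the 3 words, and the medians were -0.22 with them and -0.19 without. A match describes letters and is not a site shown to be bound.

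Complex II, the succinate dehydrogenase that links the TCA cycle to the chain, had the lowest median of the multi-subunit complexes in J.gamma1, -0.36, and for each of its 4 subunits the knockdown libraries lay below the controls. SDHC, one of the 2 membrane anchors that hold its heme, read 104 and 109 CPM in shNC and 63.7 and 63.6 in shIRF2BP2. The groups were far apart beside their spread, with means of 106 ± 3.48 and 63.6 ± 0.121 (SD, n = 2 each) and a log2 fold change of -0.74 ± 0.112 (SE; edgeR adjusted p = 0.00705). SDHC was called under every alternative processing tried at the same fold threshold, with a log2 fold change of -0.71 to -0.78 when any library was left out. The flavoprotein SDHA read 136 and 180 CPM against 114 and 127, the iron-sulfur subunit SDHB 77.9 and 93.2 against 67.7 and 67.9, and the other anchor SDHD 76.7 and 86.7 against 74.8 and 66.1. None of these 3 passed the test (edgeR adjusted p 0.153, 0.144 and 0.324).

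The ATP synthase followed, with all 17 nuclear subunits negative and 15 apart and lower. The membrane Fo and stalk subunits had a median of -0.33, and all 12 were apart and lower, from ATP5MG at -0.14 to ATP5MK at -0.63. The 5 subunits of the catalytic F1 head had a median of -0.14, from ATP5F1A at -0.04 to ATP5F1E at -0.33. ATP5MK, a small membrane subunit linked to dimers of the enzyme, read 72.2 and 67.4 CPM in shNC and 44.9 and 45.3 in shIRF2BP2 (69.8 ± 3.39 and 45.1 ± 0.282, SD, n = 2 each). Its log2 fold change was -0.63 ± 0.117 (SE; edgeR adjusted p = 0.0152). The call was lost without either shIRF2BP2 library, at -0.65 and -0.64. The catalytic subunit ATP5F1B, which had the highest level per kilobase of any nuclear member (606 CPM per kb in shNC), read 1007 and 1125 CPM against 971 and 897 and did not pass. The 3 genes for the c ring, which encode the same mature protein, read 58.3 and 64.6 against 50.4 and 39.2 (ATP5MC1), 149 and 169 against 141 and 133 (ATP5MC2), and 165 and 161 against 127 and 120 CPM (ATP5MC3), all apart and lower and none called.

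Complex IV, the cytochrome c oxidase that reduces oxygen, had a median of -0.29 over its 11 general subunits, 8 of them apart and lower. NDUFA4, now counted as a subunit of complex IV despite its name, read 107 and 102 CPM in shNC and 73.3 and 70.9 in shIRF2BP2 (104 ± 3.40 and 72.1 ± 1.71, SD, n = 2 each). The log2 fold change was -0.53 ± 0.112 (SE; edgeR adjusted p = 0.0240), and the call was lost without either shIRF2BP2 library, at -0.58 and -0.51. COX7B went the other way with libraries apart, 60.9 and 61.4 against 66.6 and 67.3 CPM, but did not pass (log2 fold change 0.13, edgeR adjusted p = 0.495). COX6A1, the highest complex IV gene per kilobase, stood at 317 CPM per kb in shNC and 255 in shIRF2BP2. The isoforms of other tissues were silent or nearly so: COX4I2 of lung, COX6A2 and COX7A1 of heart and muscle, COX7B2, COX6B2 and COX8C of testis had at most 0.244 CPM in any library and were not tested. Their general counterparts were well expressed, with COX4I1 at 220 and 249 against 180 and 195 CPM, COX7A2 at 107 and 122 against 100 and 114, and COX8A at 98.5 and 114 against 89.1 and 92.5. NDUFA4L2, the hypoxia-linked paralog of NDUFA4, was low at 2.70 and 4.25 against 1.75 and 1.86 CPM (edgeR adjusted p = 0.126).

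Complex III, which passes electrons from ubiquinol to cytochrome c, had a median of -0.24 with 7 of 9 subunits apart and lower. UQCRQ, a small subunit, read 72.9 and 76.3 CPM in shNC and 54.6 and 50.2 in shIRF2BP2 (74.6 ± 2.41 and 52.4 ± 3.13, SD, n = 2 each), with a log2 fold change of -0.51 ± 0.118 (SE; edgeR adjusted p = 0.0328). This call lay just inside the fold threshold and was lost without shNC replicate 2 (-0.48) and without either shIRF2BP2 library (-0.60 and -0.45). CYC1, cytochrome c1, lay just outside the test at 108 and 120 against 87.6 and 70.5 CPM (log2 fold change -0.53, edgeR adjusted p = 0.0520, DESeq2 adjusted p = 0.0149). UQCR10 had the opposite order, 40.1 and 39.0 against 46.2 and 43.2 CPM, and did not pass (0.18, edgeR adjusted p = 0.396). CYCS, the mobile carrier cytochrome c, read 212 and 191 against 186 and 147 CPM, apart and lower without passing (-0.27, edgeR adjusted p = 0.275).

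Complex I, the NADH dehydrogenase, had the median nearest to 0 among the complexes, -0.18, and no member of it was called. Of its 7 nuclear core subunits, which carry the redox centres, 6 were apart and lower and 1, NDUFS1, apart and higher, with a median of -0.24. NDUFV1, which binds NADH, read 116 and 135 CPM against 87.3 and 91.5 and passed on the adjusted p (edgeR, 0.0462) but with a log2 fold change of -0.49 stayed inside the fold threshold. NDUFS1 read 183 and 172 against 203 and 190 CPM (0.14, edgeR adjusted p = 0.484). The 30 accessory subunits had a median of -0.18 with 20 apart and lower. Their lowest was NDUFS6 at 55.6 and 42.4 against 36.0 and 31.4 CPM (-0.54, edgeR adjusted p = 0.0736), and the only one apart and higher was NDUFA5 at 91.3 and 95.3 against 102 and 101 CPM. NDUFA3 gave values that overlapped widely, from 0.161 to 2.2 CPM in shNC and from 0.780 to 5.87 in shIRF2BP2, with a log2 fold change of 1.52 ± 1.08 (SE; edgeR adjusted p = 0.409). The 8 NDUFAF assembly factors, which help build complex I without staying in it, had a median of 0.05, from NDUFAF1 at -0.42 to NDUFAF3 at 0.19, and 2 were apart and lower.

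**Figure D2:**
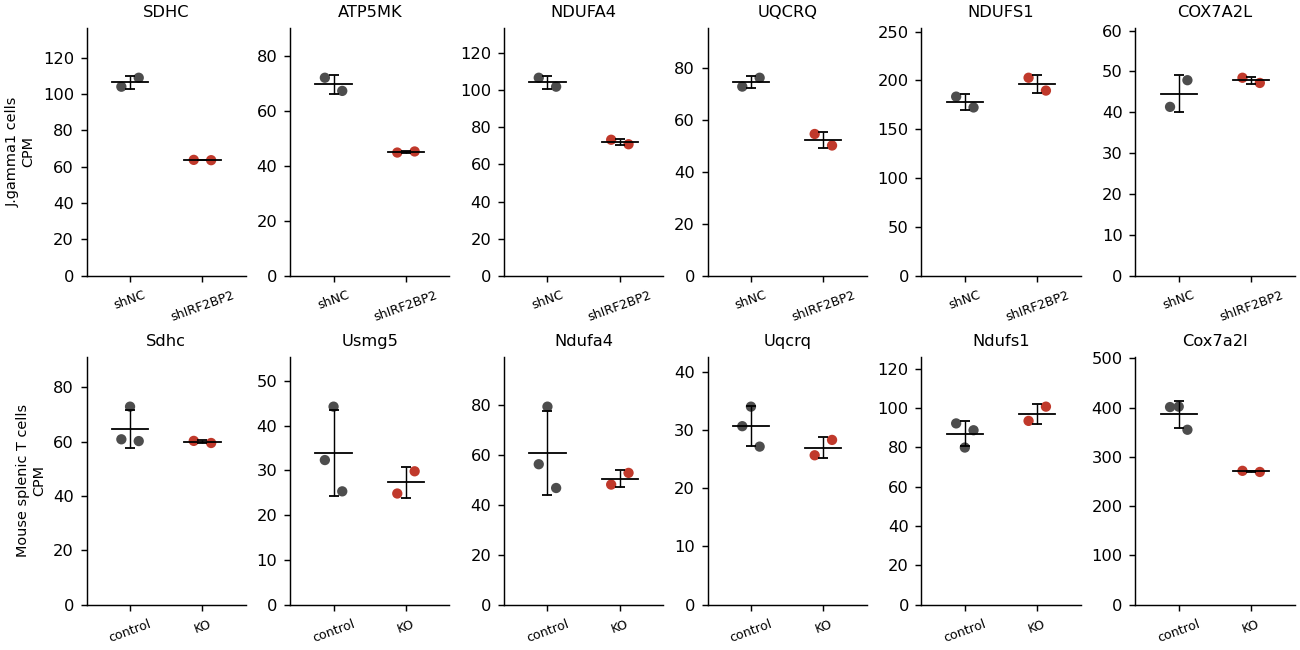
CPM in each library for the 4 called members, NDUFS1 and COX7A2L in J.gamma1 and for their mouse counterparts (mouse Usmg5 is ATP5MK), with points for libraries and bars for mean ± SD. SDHC, ATP5MK, NDUFA4 and UQCRQ are separated in J.gamma1 and overlap in mouse, NDUFS1 is slightly higher in both, and Cox7a2l is lower in mouse alone (401, 402 and 355 against 272 and 269 CPM).

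The 13 mitochondrial genes of J.gamma1 did not move with the nuclear ones, and none passed the test. Their median log2 fold change was 0.32, 12 of 13 were positive, and 3 (MT-ND4, MT-ND5 and MT-ND6, subunits of complex I) were apart and higher. This rested on shNC replicate 2, which had the lowest mitochondrial share: the 13 genes took 4.02% and 2.82% of the counts in the shNC libraries and 4.07% and 3.78% in the shIRF2BP2 libraries. Without shNC replicate 2 the median was -0.05, and without shNC replicate 1 it was 0.78. MT-ND5 read 2078 and 1214 CPM in shNC and 2685 and 2342 in shIRF2BP2, above both controls (0.61 ± 0.244, SE; edgeR adjusted p = 0.151, DESeq2 adjusted p = 0.0401).

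For the other mitochondrial genes except MT-CO2, shNC replicate 2 was again the lowest library. MT-ND4 read 5369 and 3760 against 5796 and 5612 CPM and MT-ND6 156 and 115 against 175 and 164, both apart. MT-ATP6 read 3582 and 1955 against 3872 and 2879 CPM, MT-ATP8 1013 and 456 against 1124 and 783, and MT-ND1 1292 and 695 against 1510 and 1035, where the first control lay between the knockdown libraries. The remaining complex I genes had log2 fold changes of 0.19 (MT-ND3), 0.38 (MT-ND2) and 0.41 (MT-ND4L), MT-CYB of complex III 0.17, and the complex IV genes 0.18 (MT-CO1), 0.09 (MT-CO3) and -0.11 (MT-CO2). MT-CO2, which was the highest member per kilobase (7825 CPM per kb in shNC), read 5726 and 4979 against 4846 and 5083 CPM with groups that overlapped.

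**Figure D3:**
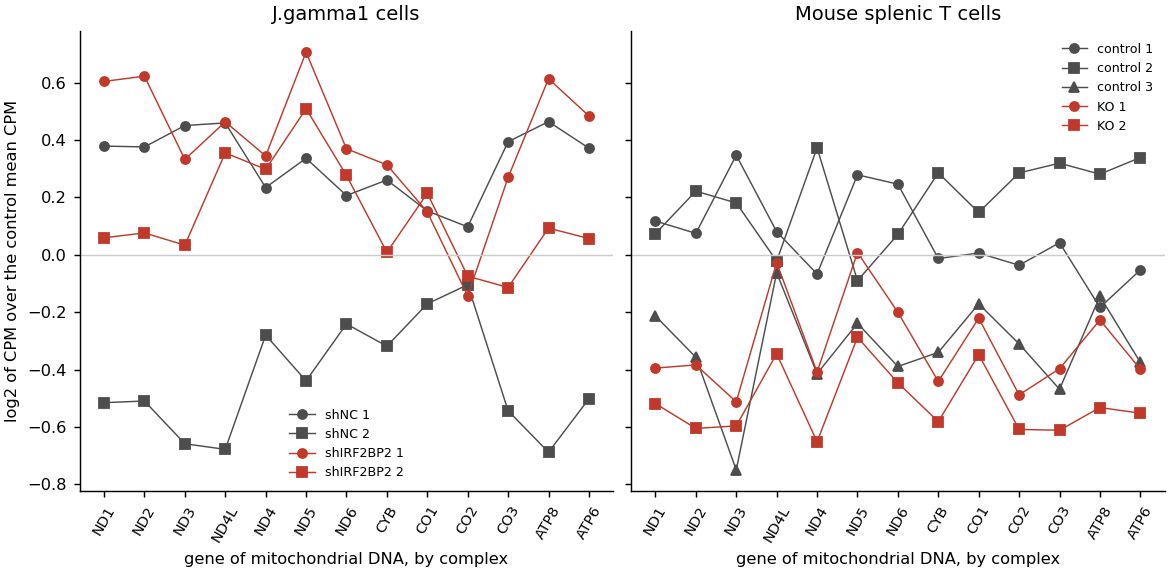
Log2 of the CPM of each of the 13 mitochondrial protein genes over the mean of its control libraries, by library, in J.gamma1 and mouse T cells. The shNC replicate 2 points lie below the other 3 J.gamma1 libraries for every gene but MT-CO2, and both knockout libraries lie below all controls for 7 of the 13 mouse genes.

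Some mitochondrial genes share bases and so could not be read apart with certainty. MT-ATP8 and MT-ATP6 are coded on one RNA in overlapping frames, and the 46 shared bases (hg38 chrM:8527-8572, plus strand) are shown to make the overlap visible.
MT-ATP8 and MT-ATP6 overlap: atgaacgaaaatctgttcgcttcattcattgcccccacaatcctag
MT-ND4L and MT-ND4 share 7 bases at chrM:10760-10766. MT-ND6 lies on the other strand from the rest, and the library kit does not mark strand, so reads of RNA antisense to it cannot be told from its own.

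Set against each other within a library, the ratio of summed mitochondrial to summed nuclear member counts was 4.54 and 2.86 in shNC and 5.02 and 4.75 in shIRF2BP2. The difference in log2 ratio was 0.44, and the two-sided exact permutation p was 0.333, which is the smallest that 2 libraries against 2 allow. Without shNC replicate 2 the difference was 0.11. The nuclear members took 0.885% and 0.987% of counts in shNC and 0.810% and 0.795% in shIRF2BP2, and their summed CPM was lower in both knockdown libraries for every complex, for example 395 and 468 against 321 and 325 for complex II. Within complexes, the ratio was higher in both knockdown libraries for complex I (5.11 and 2.91 against 6.10 and 5.54) and complex IV (15.9 and 11.3 against 17.3 and 16.9), and overlapped for complex III and the ATP synthase. Mitochondrial genes made up 74.1 to 83.4% of the members' summed CPM in J.gamma1.

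**Figure D4:**
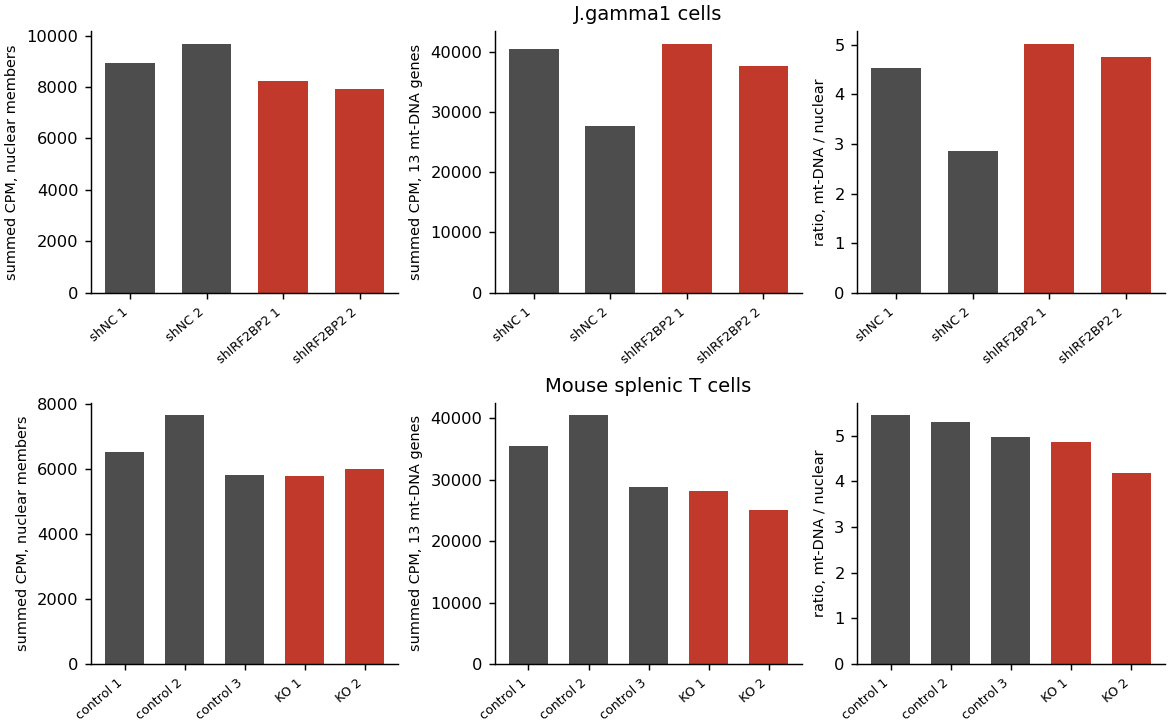
Summed CPM of the nuclear members, summed CPM of the 13 mitochondrial genes and the ratio of the latter to the former, 1 bar per library from 0. In J.gamma1 the nuclear sums of both knockdown libraries are below the controls and the ratio is lowest in shNC replicate 2 (2.86); in mouse the ratio of both knockouts (4.86 and 4.18) is below that of the 3 controls (4.98 to 5.45).

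In mouse CD3+ T cells, members from both genomes stood lower in the knockouts by point estimate and none passed the test. Calls in mouse required an edgeR adjusted p below 0.05 together with a change of 1 or more on the log2 scale. The rates over all genes were 0.111% called lower and 2.47% called higher, and on the adjusted p alone 0.15% lower and 2.68% higher, and no member was among them. At an unadjusted p under 0.05, 10 members were lower and 1, Cox6b2, was higher, and DESeq2 gave 1 lower (Cox7a2l) and 1 higher (Cox6b2) at its adjusted p under 0.05. For these last rules too the shares of all genes were not computed. The nuclear median was -0.20 beside -0.02 for all 15350 genes, with 76 of 88 negative. Both knockouts lay below the 3 controls for 18 nuclear members (20.5%) and 7 mitochondrial members, where 17.8% of all genes did, and above them for 2 nuclear members, Ndufs1 and Cox6b2, where 18.2% of all genes did. The nuclear share that was apart and lower was therefore near the background.

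Wild type control replicate 2 was the highest library for most nuclear members, and without it the nuclear median was -0.04. The same library had the highest sums of myeloid markers (411 CPM, against 45.3 to 158 in the other 4) and B cell markers (255 CPM, against 34.5 to 156), and their part in the result was not tested. Short genes were lower in mouse too: with transcripts of up to 1000 bases all 1074 genes had a median of -0.23 and the 54 nuclear members -0.22, and over 1000 bases the medians were -0.01 for 11614 genes and -0.13 for 34 members. Up to 1000 bases, 30.4% of all genes and 20.4% of members were apart and lower.

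By complex, the mouse medians were -0.18 for the complex I core subunits, -0.22 for the accessory subunits, -0.15 for the assembly factors, -0.08 for complex II, -0.13 for complex III, -0.20 for the general complex IV subunits and -0.22 for the ATP synthase, whose 17 nuclear subunits were all negative, from Atp5b at -0.01 to Atp5e at -0.47. The lowest accessory subunit was Ndufa2 at 43.1, 45.0 and 32.6 CPM in the controls and 26.9 and 28.7 in the knockouts (-0.54 ± 0.179, SE; edgeR adjusted p = 0.215). Uqcrh of complex III read 151, 166 and 124 against 112 and 111 CPM (-0.40, edgeR adjusted p = 0.272), apart and lower. Cycs overlapped at 51.8, 81.5 and 46.6 against 57.5 and 62.7 CPM. The genes called in J.gamma1 all overlapped between groups in mouse: Sdhc read 60.8, 72.8 and 60.2 against 60.2 and 59.5 CPM, Usmg5 32.3, 44.3 and 25.3 against 24.8 and 29.8, Ndufa4 56.3, 79.4 and 46.8 against 48.1 and 52.8, and Uqcrq 30.7, 34.0 and 27.1 against 25.7 and 28.3.

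A pair of complex IV related genes stood out in mouse. Cox7a2l encodes a factor that joins complexes III and IV into supercomplexes and was the highest nuclear member per kilobase (350 CPM per kb in the controls). It read 401, 402 and 355 CPM in the controls and 272 and 269 in the knockouts, 386 ± 26.8 (SD, n = 3) and 270 ± 1.62 (SD, n = 2), with a log2 fold change of -0.51 ± 0.129 (SE; edgeR adjusted p = 0.104, DESeq2 adjusted p = 0.00277). Human COX7A2L overlapped, at 41.3 and 47.9 against 48.5 and 47.2 CPM. Cox6b2, known from testis, was low at 1.78, 3.21 and 0.938 CPM in the controls and 6.65 and 7.24 in the knockouts (1.79 ± 0.484, SE; edgeR adjusted p = 0.131, DESeq2 adjusted p = 0.0141). The erythroid and proliferation sums given above were higher in the same 2 libraries, and their part in this result was not tested. Cox4i2, Cox6a2, Cox7a1, Cox7b2, Cox8b, Cox8c and Ndufa4l2 had at most 0.528 CPM in any library.

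The 13 mitochondrial genes of mouse were all negative, with a median of -0.47, and 7 were apart and lower. The lowest adjusted p among them was that of mt-Nd1, at 2508, 2432 and 1994 CPM in the controls and 1758 and 1613 in the knockouts (-0.46 ± 0.158, SE; edgeR adjusted p = 0.227). The complex IV genes were mt-Co1 at 12549, 13842 and 11098 against 10722 and 9818 CPM (-0.28), mt-Co2 at 2695, 3368 and 2229 against 1970 and 1813 (-0.55), and mt-Co3 at -0.50. The knockouts lay below every control for mt-Co1 and mt-Co2 and overlapped for mt-Co3. For the rest the log2 fold changes were -0.51 (mt-Cytb), -0.47 (mt-Atp6), -0.37 (mt-Atp8), -0.49 (mt-Nd2), -0.56 (mt-Nd3), -0.53 (mt-Nd4), -0.18 (mt-Nd4l), -0.13 (mt-Nd5) and -0.32 (mt-Nd6). Over single libraries left out, the mitochondrial median ranged from -0.64 without Wild type control replicate 3 to -0.28 without replicate 2.

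The mitochondrial genes took 3.55%, 4.02% and 2.78% of counts in the mouse controls and 2.91% and 2.55% in the knockouts, with overlap through control replicate 3. The ratio of mitochondrial to nuclear member counts was 5.45, 5.29 and 4.98 in the controls and 4.86 and 4.18 in the knockouts, apart and lower. The log2 difference was -0.22, and the two-sided exact permutation p was 0.1, the smallest that 2 libraries against 3 allow. Within complexes, the ratio was lower in both knockouts for complex I (6.38, 5.67 and 5.65 against 5.63 and 4.64), complex III (5.76, 6.05 and 5.08 against 4.73 and 4.23) and the ATP synthase (1.58, 1.73 and 1.41 against 1.37 and 1.18). It overlapped for complex IV (14.5, 14.1 and 14.5 against 14.6 and 12.5).

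Set side by side, most nuclear genes were negative in each system, and the sizes of their changes showed no positive relation. Of 87 nuclear pairs tested in both, 73 were negative in J.gamma1, 76 in mouse, 65 in both, and 3 were positive in both. Of all 9899 genes paired by symbol, 4891 were negative in J.gamma1, 5323 in mouse, 2784 in both, and 2469 were positive in both. With so many nuclear genes negative in each system, a large count negative in both follows from the separate counts and is not read as agreement gene by gene. Across the 87 genes, which share libraries and are not independent, Spearman's rho of the log2 fold changes was -0.11 (Pearson's r -0.17), and 0.06 across all paired genes. For the 13 mitochondrial genes rho was 0.68 although the signs were mostly opposite, with MT-CO2 the only one negative in both. These 13 genes share libraries and long RNAs, and their J.gamma1 values rest on shNC replicate 2. Their rho was not computed without that library and is not read as agreement between the systems. Libraries were apart and lower in both systems for 12 nuclear genes: ATP5F1D, ATP5F1E, ATP5MG and ATP5MJ of the ATP synthase, NDUFA2, NDUFA11, NDUFB11, NDUFS3, NDUFS4 and NDUFV3 of complex I, and UQCRB and UQCRH of complex III. These are 13.8% of the 87 pairs, where 72.4% were apart and lower in J.gamma1 and 20.7% in mouse. Of all paired genes 7.06% were apart and lower in both, 30.9% in J.gamma1 and 19.5% in mouse. A share of 13.8% in both follows from the separate shares of the members, so the 12 genes are not read as agreement gene by gene. NDUFS1 was apart and higher in both, and no nuclear member was apart in opposite directions.

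**Figure D5:**
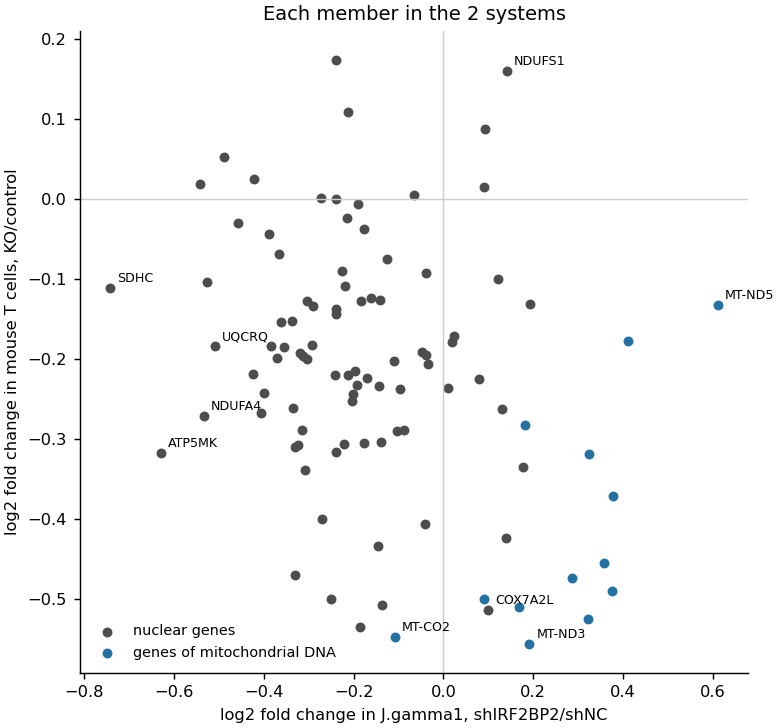
Log2 fold change in mouse T cells against that in J.gamma1 for 86 nuclear pairs (NDUFA3, at 1.52 in J.gamma1, left out for its size) and the 13 mitochondrial genes. The nuclear genes cluster in the quadrant negative in both without a slope, and the mitochondrial genes lie mostly at positive J.gamma1 and negative mouse values.

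Per kilobase of coding transcript the 2 genomes differed by over an order of magnitude in level. The median tested nuclear member stood at 94.0 CPM per kb and the median mitochondrial member at 3312 in shNC, and at 56.1 and 2121 in the mouse controls. Besides ATP5F1B and COX6A1, the highest members of their complexes in shNC were NDUFS5 (334), UQCRH (238) and SDHC (231 CPM per kb). In the mouse controls they were Cox7a2l (350), Atp5b (340), Uqcrh (310), Ndufa3 (139) and Sdha (90.9 CPM per kb). These ranks depend on the annotated transcript lengths, which for SDHC were 460 bases in human and 1993 in mouse. By CPM without division by length, SDHA stood above SDHC in both shNC libraries. MT-ND6 and mt-Nd6, the genes of the other strand, were the lowest mitochondrial members at 258 and 272 CPM per kb. UQCRHL, an intronless copy of UQCRH, read 6.29 and 3.64 against 3.50 and 2.75 CPM, and reads of the 2 copies may be split between them.

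Genes that serve the chain without belonging to it held larger changes in J.gamma1, and the counts below stand beside 5.01% of all genes called lower and 5.46% called higher. Of 42 assembly factors outside the rule, 5 fell and none rose: SDHAF1, which matures the iron-sulfur subunit of complex II, from 11.9 and 14.8 to 5.77 and 6.20 CPM (log2 fold change -1.16), TTC19 of complex III (-0.84), COA5 of complex IV (-0.82), LYRM7 of complex III (-0.67) and TMEM126B of complex I (-0.58). Libraries of 20 of the 42 were apart and lower (47.6%, where 28.7% of all genes were). Those of 7 were apart and higher (16.7%, against 29.6% of all genes). The highest, COX20 of complex IV, read 7.68 and 10.8 against 14.9 and 18.4 CPM and lay just outside the test (0.85, edgeR adjusted p = 0.0520, DESeq2 adjusted p = 0.0115). Of 13 TCA cycle genes 2 fell, fumarase FH from 205 and 247 to 136 and 128 CPM (-0.78) and IDH3A (-0.55). Of 26 genes of mitochondrial transcription and of RNA or DNA upkeep 2 fell, ELAC2, which trims the 3' ends of mitochondrial tRNAs, from 150 and 143 to 64.1 and 56.9 CPM (-1.28), and the DNA helicase TWNK (-0.62). In that list 1 rose, HSD17B10, a subunit of mitochondrial RNase P, from 36.3 and 37.2 to 79.3 and 71.8 CPM (1.04). Of 9 nuclear regulators of these genes tested 2 rose, the nuclear receptor ESRRA from 31.3 and 33.7 to 58.1 and 51.0 CPM (0.75) and CREB1 (0.63), while NRF1, GABPA and YY1 stood at 0.13, -0.07 and 0.25 and did not pass. Without shIRF2BP2 replicate 1 the calls of COA5 (-0.85), LYRM7 (-0.65), TMEM126B (-0.69), IDH3A (-0.65), CREB1 (0.61) and ESRRA (0.62) were lost. Without replicate 2 those of COA5 (-0.81), LYRM7 (-0.72), TMEM126B (-0.51), IDH3A (-0.47), FH (-0.74), TWNK (-0.47) and CREB1 (0.62) were lost. When genes with 1 count in any library were kept, those of TWNK, TMEM126B, LYRM7, IDH3A, CREB1 and ESRRA were lost. List medians were -0.13 for assembly factors, -0.13 for the TCA cycle, -0.06 for transcription and RNA or DNA upkeep and 0.26 for the regulators.

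In mouse, none of the 40 assembly factors (Atpif1 counted among them), 12 TCA cycle genes, 24 genes of transcription and RNA or DNA upkeep and 9 regulators tested was called. The largest difference was that of Atpif1, the inhibitor of ATP hydrolysis by the synthase, which is also known from heme synthesis in red cell precursors, at 15.8, 26.4 and 13.1 CPM in the controls and 45.6 and 58.4 in the knockouts (1.49, edgeR adjusted p = 0.0570, just outside the test, and called under 6 alternatives, DESeq2, both other filters, halved counts, the replicate block and without Wild type control replicate 2, at 1.85 in the last). The erythroid markers, 6 of 11 of which were called higher, moved with it, and their part in the value was not tested. Next were Cox16 at 24.3, 29.4 and 21.0 against 15.1 and 16.6 CPM (-0.65) and Hsd17b10 at 43.3, 52.5 and 38.2 against 32.6 and 30.6 (-0.50), the latter opposite in sign to the human gene. Of the TCA cycle genes Suclg1 (-0.37) and Idh3a (0.24), of the transcription and upkeep genes Tfb1m (0.25) and of the regulators Ppargc1b (0.32) and Gabpb1 (-0.10) are given for scale.

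A 6-base word, GGTCTA, had earlier been picked out from these same fold changes in J.gamma1. By that choice 10.4% of tested genes whose coding transcripts hold it were called lower and 3.78% of those without, which is a description and no support for the word. It was held by 14 of the 90 nuclear members (15.6%), against 32.2% of 12663 tested genes. The 14 had a median of -0.30 with 1 called (SDHC), and the 76 without it had a median of -0.21 with 3 called.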

How the data were processed

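RNA was extracted with TRIzol and libraries were made with a TruSeq RNA kit that does not mark strand. The authors aligned reads with HISAT2 2.2.0 and assembled them with StringTie on hg38 (human) or mm10 (mouse), per the submitters' processing notes, and deposited 1 table of counts per gene and species. Whether counting used strand is not given in the sources used here. Names, positions and lengths came from the GENCODE annotations of these builds.

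The deposited counts of 9 libraries were used as they stand. Each table was fitted with edgeR 4.0.16 (R 4.3.3; filterByExpr, TMM factors, quasi-likelihood test, no covariate), with Benjamini-Hochberg adjustment over all genes tested. Calls required an adjusted p below 0.05 and a change on the log2 scale of 0.5 or more (J.gamma1) or 1 or more (mouse). SE is the log2 fold change over the square root of F. The script was tested on simulated counts, drawn with a spread set above the fitted one. A log2 change of -1 or 1 was called for 36% or 46% of changed genes in J.gamma1 and 12% or 14% in mouse. At -2 or 2 the shares were 98% and 100% in J.gamma1 and 96% and 92% in mouse. A gene not called may therefore still have changed. "Apart" means that the libraries of 2 groups do not overlap. CPM per kb divides by the median length of the gene's coding transcripts. Mitochondrial to nuclear ratios used summed counts and exact permutation tests over libraries.

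The genes named are the targeted gene, the 13 mitochondrial genes, called members, the highest and lowest of each role, the highest per kilobase of each complex, and paralogs of 1 subunit. From 4 other lists they are the called genes in J.gamma1, with the regulators NRF1, GABPA and YY1. In mouse they are those with the highest or lowest log2 fold change of a list. Genes apart in both systems, genes just outside the thresholds, Cox7a2l and Cox6b2 were picked out after their values were seen. The members and lists were chosen with earlier results of these data known. Alternatives were DESeq2 1.42.0, other scalings and filters, halved counts, all rows, pseudogene counts added, a replicate block, each library left out, and other fold thresholds. The word and the comparison of ratios between systems were added after seeing the data.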

Additional observations from a re-analysis of the deposited data

Results flagged for a closer look

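The mitochondrial to nuclear ratio went opposite ways in the 2 systems. Its log2 difference (loss of IRF2BP2 against control) was 0.44 in J.gamma1, where both shIRF2BP2 libraries lay above both shNC libraries, and -0.22 in mouse T cells, where both knockouts lay below the 3 controls. The gap between the 2 differences was 0.656. It was looked at after both systems were seen to separate in opposite directions. A permutation of the labels then has to return the smallest p it can give, so none is given and the difference was not tested independently. The gap sets a knockdown in a line against a knockout in mice. Leaving out 1 library gave a gap of 0.322 to 0.989, lowest without shNC replicate 2 and highest without shNC replicate 1. No library was tested as an outlier, since no group held over 3.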

How the results depend on the processing

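The number of members called lower in J.gamma1 was 4 in the report, beside 793 of all genes. It was 7 with upper-quartile scaling, beside 946. It was 2 when genes with 1 count in any library were kept (SDHC and ATP5MK), beside 396. With a log2 threshold of 1 it was 0. Leaving out 1 library gave 1 to 12: 1 without either shIRF2BP2 library (SDHC) and 12 without shNC replicate 1. The number called higher, 0 in the report, was 1 with DESeq2 (MT-ND5), 2 with the replicate block (NDUFA3 and MT-ND5) and 0 to 11 when a library was left out, 11 without shNC replicate 1. Of all genes, 864 were called higher in the report, 1022 with DESeq2 and 1293 with the replicate block. Without shNC replicate 1, more of all genes were called in both directions too. A J.gamma1 fit without 1 library leaves only 1 in that group, so its counts are not read as a response of the members. The median of the mitochondrial genes ranged from -0.0505 without shNC replicate 2 to 0.78 without shNC replicate 1. Signs turned, over libraries left out, for MT-ATP6 (-0.0868 to 0.78), MT-ATP8 (-0.0886 to 1.06), MT-ND1 (-0.0228 to 0.87), MT-ND2 (-0.00197 to 0.88), MT-ND4L (-0.0505 to 1.08), each negative without shNC replicate 2, and NDUFA3 (-0.60 without shIRF2BP2 replicate 1 to 4.33 without shNC replicate 1). The cause was not tested. In mouse the number called higher was 0 in the report, beside 379 of all genes. It was 1 (Cox6b2) with DESeq2, beside 735, and 1 without Wild type control replicate 2, beside 532. A difference smaller than its SE was given no direction, and 8 such values in 5 human genes and 32 in 12 mouse genes changed sign by at most 0.305 and 0.218.

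Replicate numbers are shared between groups, but no label pairs the libraries. Same-numbered libraries deviated together with correlations of 0.225 in J.gamma1, and 0.151 and -0.161 in mouse. With the replicate number as a block, 6 members were called lower in J.gamma1, beside 1174 of all genes. The nuclear and mitochondrial medians were then -0.22 and 0.34. In mouse they were -0.30 and -0.62 with no call. The largest move of the median of all genes under another scaling was -0.0537 (upper-quartile, J.gamma1). Without members holding the word GGTCTA, 3 were called lower.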
